A study of Zea mays with 12 samples.

Results

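The 8 floral MADS-box genes of maize described here are the C-class genes zag1 (GRMZM2G052890) and zmm2 (GRMZM2G359952), the B-class genes si1 (silky1, GRMZM2G139073) and zmm16 (GRMZM2G110153), the SEPALLATA-type genes zmm8 (GRMZM2G102161) and zmm14 (GRMZM2G099522), the APETALA1-type gene zap1 (GRMZM2G148693) and the AGL6-type gene bde (bearded-ear or zag3, GRMZM2G160565). They were chosen by gene identifier and not by a rule on their values, with earlier results of these data known. Of 34423 genes listed in at least 1 of the 12 RNA-seq libraries, these 8 were listed in all 12, and all 8 were among the 26089 genes with enough counts to be tested. The libraries came from plants of 1 maize inbred line, B104 (labelled inbred line 104), and the labels name no transgene or mutation. They form 6 groups of 2 libraries each: the young ear, collected at the V9 stage, and the leaf at the node of the ear (ear leaf) and the kernel, collected at the 5DAP stage (5 days after pollination), each from well-watered control plants and from plants held for several days at a low soil water content (drought). Libraries of a group were made from pooled organs of several plants, so that p-values measure the spread between pooled samples. The ear was taken at an earlier stage than the ear leaf and the kernel, and organ and stage cannot be told apart in comparisons with the ear. The files hold no gene positions.

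MADS-box proteins are transcription factors that bind DNA as dimers and act in complexes of several members. In the ABC model of the flower, B-class proteins specify petals and stamens (lodicules and stamens in grasses), C-class proteins specify stamens and carpels and end the activity of the floral meristem, and SEPALLATA-type proteins join the complexes as partners. The maize ear carries rows of paired spikelets whose florets form a carpel, and the ovary of that carpel becomes the kernel after pollination. In maize, zag1 limits the growth of the ear floret meristem, si1 is the counterpart of APETALA3 whose mutant has silks in place of stamens, zmm16 (also sterile tassel silky ear1) is a counterpart of PISTILLATA, zmm8 and zmm14 are active in the upper floret of the spikelet, and bde acts in the fate of the floral meristem.

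Each library held between 3429219 (control ear leaf replicate 2) and 5452598 (drought ear leaf replicate 1) counts assigned to genes. A level of 3 counts corresponded to 0.466 to 1.31 CPM (counts scaled to a common library size, here with TMM factors that ranged from 0.648 to 1.26). The organ labels were checked with fixed marker genes. The summed level of 5 leaf photosynthesis genes lay at 61401 to 63984 CPM in control ear leaves, 11212 to 11359 CPM in drought ear leaves and 79.7 to 225 CPM in every ear and kernel library. For 4 inflorescence meristem genes (kn1, ra1, ra3 and TD1) the sum was 367 to 379 CPM in control ears, 277 to 279 CPM in drought ears and 49.3 to 86.2 CPM elsewhere. This separation came mainly from kn1, since ra1 and ra3 did not exceed 5.60 CPM in any library. TD1 was higher in drought ear leaves (84.3 and 82.4 CPM) than in drought ears (69.2 and 66.7 CPM). The 4 endosperm genes did not set the kernel apart, since bt2 and sh2, which encode the enzyme of the first committed step of starch synthesis, were low in all 3 organs, and GRMZM2G111306 and GRMZM2G015534 were at 0 counts in every library. All 4 endosperm genes together gave 14.9 to 27.3 CPM in kernels and 19.9 to 57.5 CPM in ears and ear leaves.

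Under watered conditions all 8 genes were highest in an organ that bears or derives from flowers and lowest in the ear leaf. No gene of the 8 exceeded 4.73 FPKM in a control ear leaf, the level of zmm16 in replicate 1. Levels of different genes are compared here in FPKM, which is corrected for gene length. The 8 genes summed to 386 and 387 FPKM in the control ears, 12.1 and 13.4 FPKM in the control ear leaves and 715 and 749.6 FPKM in the control kernels. FPKM carries no TMM factors, which were 1.18 and 1.17 in control ears, 0.648 and 0.670 in control ear leaves and 1.17 and 1.21 in control kernels. The excess of ear and kernel over ear leaf is therefore larger in FPKM than in CPM. All 8 were called higher in the ear than in the ear leaf, by the criteria used throughout (edgeR adjusted p under 0.001 with a log2 fold change of 1 or more in size), where 22.5% of all tested genes were called higher and 48.7% were called in either direction. The kernel also exceeded the ear leaf for all 8, against 21.8% of all tested genes called higher and 44.9% called in either direction. As the libraries are of whole organs, fewer cells of a type and less RNA per cell cannot be told apart in any of these comparisons.

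**Figure D1:**
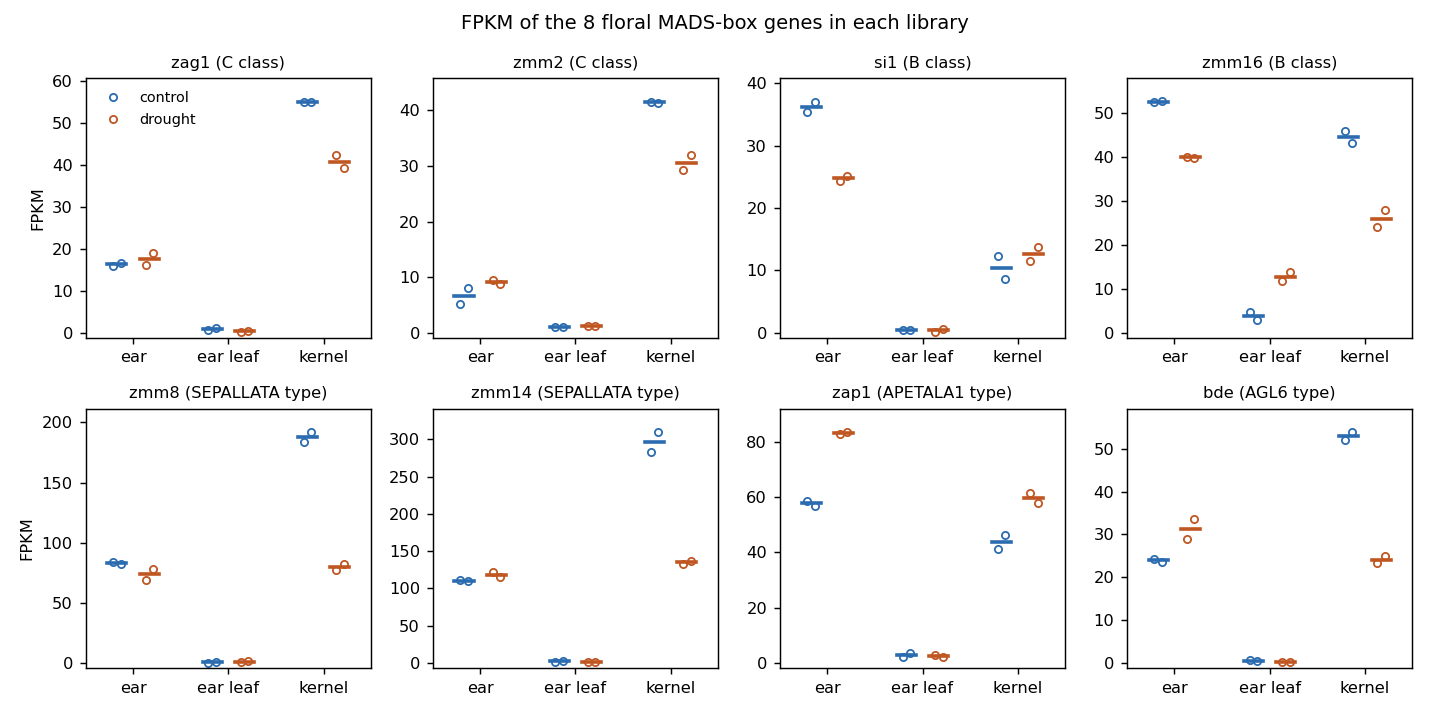
FPKM (y axis) of each of the 8 floral MADS-box genes in each library, by organ (x axis), with a circle for each library and a bar for the mean of the 2 libraries of a group, in blue for control and orange for drought. The ear leaf libraries lie near 0 for all genes but zmm16, and the control kernels are the highest group for 5 of the 8 genes, zag1, zmm2, zmm8, zmm14 and bde, with zmm14 reaching 309 FPKM.

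Both C-class genes had more transcript in the kernel than in the young ear. zag1 had 16.0 and 16.8 FPKM in the control ears, 0.61 and 1.14 FPKM in the control ear leaves and 55.1 FPKM in each control kernel. The kernel libraries lay above the ear libraries and these above the ear leaf libraries, with no overlap. The kernel level of zag1 was 3.32-fold that of the ear (log2 1.73, SE 0.13, edgeR adjusted p = 3.1e-12). For zmm2 the levels were 5.22 and 8.07 FPKM in the control ears, 1.06 and 1.07 FPKM in the control ear leaves and 41.5 and 41.4 FPKM in the control kernels. The same order of organs held for zmm2, without overlap, and its kernel level was 6.24-fold that of the ear (log2 2.64, SE 0.17, edgeR adjusted p = 1.6e-14). The ear exceeded the ear leaf less for zmm2 (log2 1.90, SE 0.40, edgeR adjusted p = 1.8e-05) than for any of the other 7 genes, and without control ear leaf replicate 1 that difference was 1.58 with an adjusted p of 0.0021 and no longer met the criteria.

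The B-class genes did not share this order. si1 was at 35.4 and 37.0 FPKM in the control ears, 0.51 and 0.40 FPKM in the control ear leaves and 12.4 and 8.56 FPKM in the control kernels. All ear libraries were above all kernel libraries, and si1 was the 1 gene of the 8 that was called lower in the kernel than in the ear (log2 -1.80, SE 0.16, edgeR adjusted p = 7.3e-11), a level 3.48-fold lower. Its partner zmm16 had 52.6 and 52.6 FPKM in the control ears, 4.73 and 2.91 FPKM in the control ear leaves and 46.0 and 43.2 FPKM in the control kernels. Here the ear and kernel levels lay close together, although without overlap (log2 -0.25, SE 0.11, edgeR adjusted p = 0.043, which missed the criteria). Among the 8 genes, zmm16 had the highest mean level in the control ear leaves, although zap1 exceeded it in replicate 2.

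The SEPALLATA-type genes were the most abundant of the 8 in the watered ear and kernel. zmm8 was at 83.7 and 82.3 FPKM in the control ears, 0.30 and 1.21 FPKM in the control ear leaves and 184 and 192 FPKM in the control kernels. Its kernel level was 2.24-fold that of the ear (log2 1.16, SE 0.09, edgeR adjusted p = 7.6e-12). zmm14 had 111 and 109.9 FPKM in the control ears, 1.93 and 2.72 FPKM in the control ear leaves and 283 and 309 FPKM in the control kernels. The zmm14 level exceeded that of zmm8 in each of the 12 libraries. In the control kernels zmm14 was above 99.3% and 99.5% of the genes listed in the library, and its level was 2.71-fold that of the ear (log2 1.44, SE 0.08, edgeR adjusted p = 2.9e-15). Together zmm8 and zmm14 made up 50.3% and 49.7% of the summed FPKM of the 8 genes in the control ears and 65.3% and 66.9% in the control kernels.

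zap1, the maize counterpart of the floral meristem identity gene APETALA1, was higher in the ear than in the kernel by less than the fold criterion. It had 58.6 and 56.7 FPKM in the control ears, 2.34 and 3.55 FPKM in the control ear leaves and 41.0 and 46.3 FPKM in the control kernels. The groups did not overlap, and the log2 difference of kernel against ear was -0.45 (SE 0.09, edgeR adjusted p = 1.3e-04). bde followed the order of the C-class and SEPALLATA-type genes, with 24.3 and 23.6 FPKM in the control ears, 0.63 and 0.40 FPKM in the control ear leaves and 51.9 and 53.8 FPKM in the control kernels. The kernel level of bde was 2.19-fold that of the ear (log2 1.13, SE 0.11, edgeR adjusted p = 6.3e-10). In all, 6 of the 8 genes were called between kernel and ear, 5 higher and 1 lower, where 24% of all tested genes were called, 14.6% higher and 9.36% lower.

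The size of the step from ear leaf to ear rested on few counts on the leaf side. Over both control ear leaves the summed counts were 6 for si1, 7 for zmm8, 7 for bde, 9 for zag1, 13 for zmm2, 20 for zmm14, 30 for zap1 and 43 for zmm16. The ear to ear leaf ratio of summed counts was 70.9 for zmm8, with a 95% exact binomial interval of 34.3 to 177 that covers counting error only. The corresponding ratio was 43.2 for si1 (19.7 to 118) and 7.28 for zmm16 (5.35 to 10.2). The fitted log2 differences ran from 1.90 for zmm2 to 6.12 for zmm8, and their median over the 8 genes was 4.15, beside 0.01 over all tested genes. The zmm8 value was 5.28 without control ear leaf replicate 1 and 7.18 without control ear leaf replicate 2. The meristem marker kn1 was also higher in control ears, at 270 and 272 CPM, than in control ear leaves, at 3.40 and 3.92 CPM. In control kernels kn1 was at 26.2 and 22.9 CPM, lower than in the ear, unlike the 5 genes called higher in the kernel. Its part in the organ differences was not tested.

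Under drought the SEPALLATA-type gene zmm8 fell in the kernel, to a level 2.04-fold lower than in the control. zmm14 and bde had nearly the same difference and stopped short of the fold criterion. 1 of the 8 genes was called in this comparison, where 27.1% of all tested genes were called, 13.5% as lower. At the same adjusted p and any fold, 5 of the 8 passed, 4 lower and 1 higher, beside 41.2% of all tested genes, 20.3% lower and 20.9% higher. The control and drought kernels did not overlap in CPM for any of the 8 genes, with 6 lower and 2 higher under drought, and the same held for 77.9% of all tested genes, 39% lower and 38.9% higher. The median log2 fold change was -0.41 over the 8 genes and 0.00 over all tested genes.

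For zmm8 the control kernels had 189.5 and 192 CPM and the drought kernels 90.7 and 96.1 CPM. Both drought libraries were far below both controls (log2 -1.03, SE 0.09, edgeR adjusted p = 8.6e-11). Without drought kernel replicate 1 the value was -0.99 and under the fold criterion. With limma on log2(FPKM + 0.1) the adjusted p of zmm8 was 0.034 and zmm8 did not pass, where zmm14 did. zmm14 stood at 248 and 261 CPM in control kernels and at 133 and 134 CPM in drought kernels, so that the groups were as clearly apart as for zmm8. Its log2 fold change was -0.93 (SE 0.07, edgeR adjusted p = 1.8e-11). bde had 64.8 and 65.4 CPM in control kernels and 32.9 and 35.4 CPM in drought kernels. The bde groups were also well apart (log2 -0.93, SE 0.11, edgeR adjusted p = 2.3e-08). With scaling by library size alone, without TMM factors, the values were -1.23 for zmm8, -1.13 for zmm14 and -1.13 for bde, and all 3 met the criteria. That scaling moved the median over all tested genes to -0.20 on the log2 scale in this organ, and to 0.28 in ear leaves.

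Among the B-class genes in the kernel, zmm16 had 47.2 and 43.1 CPM in controls and 28.0 and 32.4 CPM under drought. Its drought libraries lay below its controls by a log2 fold change of -0.58 (SE 0.12, edgeR adjusted p = 1.3e-04), short of the fold criterion. si1 pointed the other way, with 15.3 and 10.3 CPM in control kernels and 16.2 and 18.5 CPM in drought kernels. The gap between the si1 groups was narrow beside the spread of the controls (log2 0.44, SE 0.18, edgeR adjusted p = 0.035), and the criteria were not met.

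zap1 had 46.2 and 52.7 CPM in control kernels and 74.0 and 73.1 CPM in drought kernels. It was the gene with the largest positive value of the 8 in this organ (log2 0.57, SE 0.09, edgeR adjusted p = 5.6e-06), under the fold criterion. The C-class genes had smaller differences. zag1 was at 60.3 and 58.6 CPM in control and 52.5 and 48.7 CPM in drought kernels, and zmm2 at 53.2 and 52.1 CPM in control and 42.9 and 46.8 CPM in drought kernels. Both genes had a log2 fold change of -0.23, with edgeR adjusted p of 0.074 for zag1 and 0.094 for zmm2, and neither passed.

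Summed over the 8 genes, the level was 715 and 749.6 FPKM in control kernels and 402 and 415 FPKM in drought kernels. The share of zmm8 and zmm14 in that sum was 52.3% and 52.9% in drought kernels, below both control values. FPKM carries no TMM factors, which were 1.17 and 1.21 in control kernels and 1.03 and 1.04 in drought kernels. A fall under drought is therefore larger in the summed FPKM than it would be in CPM. Other markers moved in the same samples. The 4 meristem genes summed to 72.0 to 80.8 CPM in control kernels and 49.3 to 53.0 CPM in drought kernels, with kn1 at 22.9 to 26.2 and 21.6 to 24.0 CPM. The 4 endosperm genes, 2 of them at 0 in every library, summed to 25.6 to 27.3 and 14.9 to 16.1 CPM. Their part in the differences of the 8 genes was not tested.

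**Figure D2:**
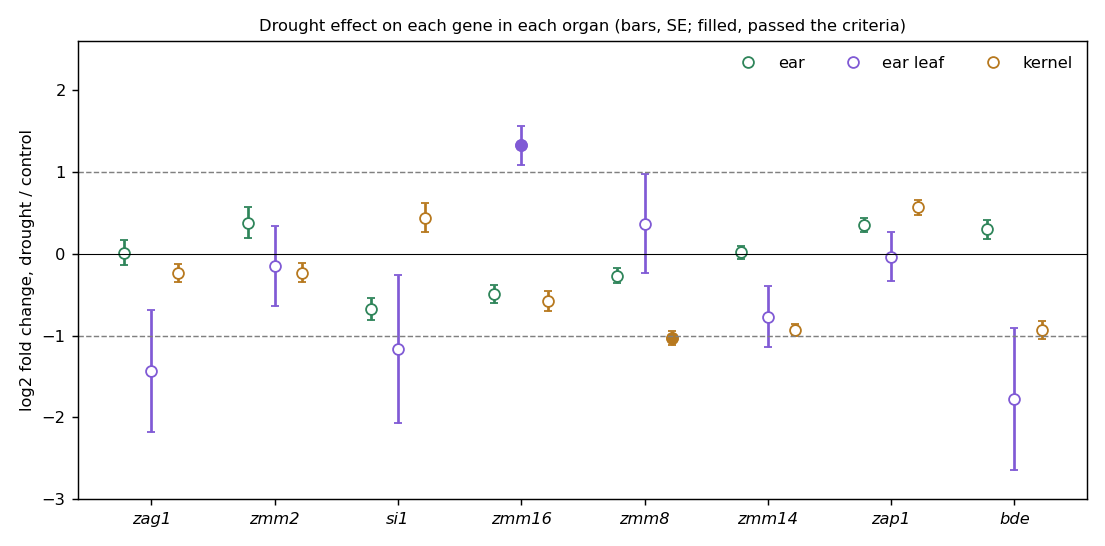
log2 fold change of drought against control (y axis) for each of the 8 genes (x axis), by organ, from the edgeR model of all 12 libraries, with bars of 1 SE and dashed lines at the fold criterion of 1 and -1. The 2 filled circles are the values that met the criteria, zmm16 in the ear leaf at 1.33 and zmm8 in the kernel at -1.03, and the widest bars belong to the ear leaf, where counts were few.

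In the ear none of the 8 genes met the criteria under drought, where 7.24% of all tested genes were called. DESeq2 also called 0 of the 8, beside 1707 of 34238 genes. With limma on log2(FPKM + 1) and log2(FPKM + 0.1) the count was again 0, beside 1488 and 1123 of 26089 genes. At an adjusted p under 0.001 and any fold the B-class genes si1 and zmm16 passed, both lower, beside 9.2% of all tested genes lower and 17.5% in either direction. The groups did not overlap in CPM for 3 genes that were higher (zmm2, zap1 and bde) and 3 that were lower (si1, zmm16 and zmm8), as for 66.9% of all tested genes, 31.7% higher and 35.1% lower. The median log2 fold change was 0.02 over the 8 genes and -0.01 over all tested genes.

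si1 had 43.3 and 45.7 CPM in control ears and 28.1 and 27.5 CPM in drought ears. The 4 libraries formed tight groups that lay apart, at a log2 fold change of -0.68 (SE 0.14, edgeR adjusted p = 2.3e-04). zmm16 showed the same picture, with 53.6 and 54.1 CPM in control ears and 38.4 and 38.1 CPM in drought ears (log2 -0.49, SE 0.11, edgeR adjusted p = 6.6e-04). zap1 had the lowest adjusted p of the remaining genes, at 68.5 and 66.7 CPM in control ears and 87.0 and 85.9 CPM in drought ears. Its log2 fold change of 0.36 (SE 0.09) had an edgeR adjusted p of 0.0015.

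None of the SEPALLATA-type and C-class genes had an edgeR adjusted p under 0.001 in the ear. zmm14 had 94.4 and 93.5 CPM in control ears and 97.9 and 92.3 CPM in drought ears, and its groups overlapped (log2 0.02, SE 0.08, edgeR adjusted p = 0.91). zmm8 had 85.6 and 84.9 CPM in control ears and 66.7 and 74.9 CPM in drought ears (log2 -0.27, SE 0.09, edgeR adjusted p = 0.028). zag1 was at 17.4 and 18.3 CPM in control ears and 16.6 and 19.6 CPM in drought ears. Drought ears thus enclosed the zag1 control values, with a log2 fold change of 0.01 (SE 0.15, edgeR adjusted p = 0.98). zmm2 and bde had positive values that did not pass, 0.38 (SE 0.19, adjusted p = 0.13) and 0.30 (SE 0.11, adjusted p = 0.043) in edgeR. Over the same libraries kn1 was at 270 and 272 CPM in controls and 206 and 210.2 CPM under drought, ra3 at 5.60 and 5.24 against 1.25 and 2.02 CPM, and ra1 at 4.16 and 3.11 against 0.469 and 0.155 CPM. Their part in the differences of the 8 genes in the ear was not tested.

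In the ear leaf, zmm16 rose 2.51-fold under drought and was the 1 gene of the 8 that met the criteria, where 16.3% of all tested genes were called and 7.13% were called higher. It had 31 and 12 expected counts in the control libraries and 78 and 88 in the drought libraries, or 8.79 and 5.23 against 17.2 and 19.9 CPM. Both drought libraries were above both controls, and the log2 fold change was 1.33 (SE 0.24, edgeR adjusted p = 1.6e-05). Without control ear leaf replicate 2, the shallowest library, it was 1.08 with an adjusted p of 0.0012 and no longer passed. The drought ear leaves reached 11.9 and 13.8 FPKM of zmm16, below both kernel and ear groups of either treatment. In the same libraries the photosynthesis sum went from 61401 to 63984 CPM in controls down to 11212 to 11359 CPM under drought, and the meristem sum was 62.4 to 69.8 and 85.3 to 86.2 CPM. That meristem sum came almost wholly from TD1, since ra1 had 0 counts in all 4 ear leaf libraries, ra3 had 1 count in 1 of them, and kn1 lay at 1.77 to 3.92 CPM. The part of these shifts in the zmm16 value was not tested.

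The other 7 genes had 1 to 27 expected counts in each ear leaf library, and no difference was detectable at this depth. Their log2 fold changes ran from -1.77 for bde (SE 0.87, edgeR adjusted p = 0.10) to 0.37 for zmm8 (SE 0.61, edgeR adjusted p = 0.69). For bde the counts were 5 and 2 in control and 1 and 2 in drought ear leaves, and the drought to control ratio of the scaled sums was 0.279, with an exact binomial interval of 0.0465 to 1.22. zap1, with 30 and 45 summed counts, allowed a tighter statement, a ratio of 0.975 with an interval of 0.601 to 1.60. The drought and control ear leaves did not overlap in CPM for 1 gene that was higher and 4 that were lower, beside 67.6% of all tested genes, 32.2% higher and 35.3% lower.

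The drought effect differed between kernel and ear for 5 of the 8 genes, tested as an interaction at an edgeR adjusted p under 0.05, where 39.3% of all tested genes differed. The kernel effect was the lower of the 2 for zmm2, zmm8, zmm14 and bde, beside 20.3% of all tested genes, and the higher for si1, beside 18.9%. These comparisons rest on the drought effects given above and share their libraries. bde had the largest difference, with an ear value of 0.30 and a kernel value of -0.93, a difference of -1.23 on the log2 scale (SE 0.16, edgeR adjusted p = 4e-07). For zmm14 the difference was -0.95 (SE 0.11, edgeR adjusted p = 6.3e-08), and for zmm8 it was -0.76 (SE 0.13, edgeR adjusted p = 2.9e-05). The reverse sign for si1 came from ear and kernel values of -0.68 and 0.44, which differed by 1.12 (SE 0.22, edgeR adjusted p = 2.1e-04). With limma on log2(FPKM + 0.1) the adjusted p was 0.24 for si1 and 0.21 for zmm8, and both calls were lost.

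For zmm2 the difference of the drought effects was -0.61 (SE 0.23, edgeR adjusted p = 0.032), and this call was lost without any 1 of 5 libraries (control ear replicate 1, control kernel replicate 1, both drought ear replicates or drought kernel replicate 1). DESeq2 gave it an adjusted p of 0.067. The drought effects of zag1, zmm16 and zap1 were not shown to differ between the kernel and the ear, with differences of -0.25 (SE 0.19), -0.09 (SE 0.16) and 0.21 (SE 0.13). With library sizes without TMM factors, edgeR called a difference for zag1 (-0.54, adjusted p = 0.019) and zmm16 (-0.38, adjusted p = 0.049). Between the ear leaf and the other organs the drought effect differed for zmm16 alone of the 8, by 1.82 above the ear (SE 0.26, edgeR adjusted p = 1.1e-06) and by -1.91 in the kernel against the ear leaf (SE 0.27, edgeR adjusted p = 4.3e-07). The share of all tested genes that differed was 35.9% in the former and 45.8% in the latter.

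**Figure D3:**
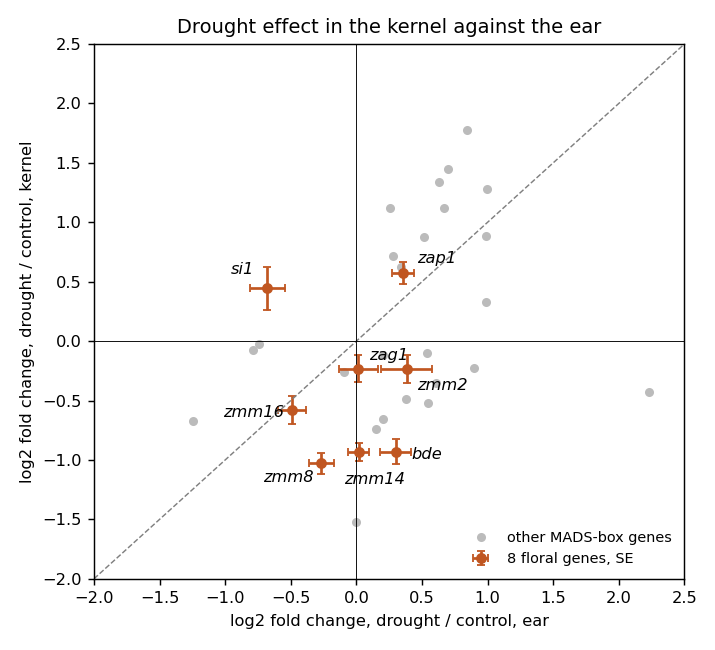
log2 fold change under drought in the kernel (y axis) against that in the ear (x axis), with bars of 1 SE for the 8 floral genes in orange and the 25 other tested MADS-box genes in grey, and a dashed line where both effects are equal. zmm14 (0.02 in the ear, -0.93 in the kernel) and bde (0.30 and -0.93) lie well below the line, and si1 (-0.68 and 0.44) lies above it.

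Members of the B and C classes kept different balances in the ear and the kernel, and the SEPALLATA-type pair differed less. These shares are of summed FPKM and carry no test. zmm8 made up 43.0% and 42.8% of the zmm8 and zmm14 sum in control ears and 39.3% and 38.3% in control kernels, and 36.2% to 40.5% in the drought ears and 36.9% to 37.5% in the drought kernels, a narrow range. zag1 gave 75.4% and 67.5% of the C-class sum in control ears and 57.0% and 57.1% in control kernels. Drought ears were at 63.1% and 68.8%. Drought kernels, at 59.2% and 55.1%, lay on either side of the control kernels. In the B class, si1 gave 40.2% and 41.3% of the sum of si1 and zmm16 in control ears, 37.8% and 38.7% in drought ears, 21.2% and 16.5% in control kernels and 32.4% and 32.9% in drought kernels. The si1 share was thus above both controls in each drought kernel and below both controls in each drought ear. In drought ear leaves it was 1.73% and 4.51%, with 1 and 3 si1 counts.

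**Figure D4:**
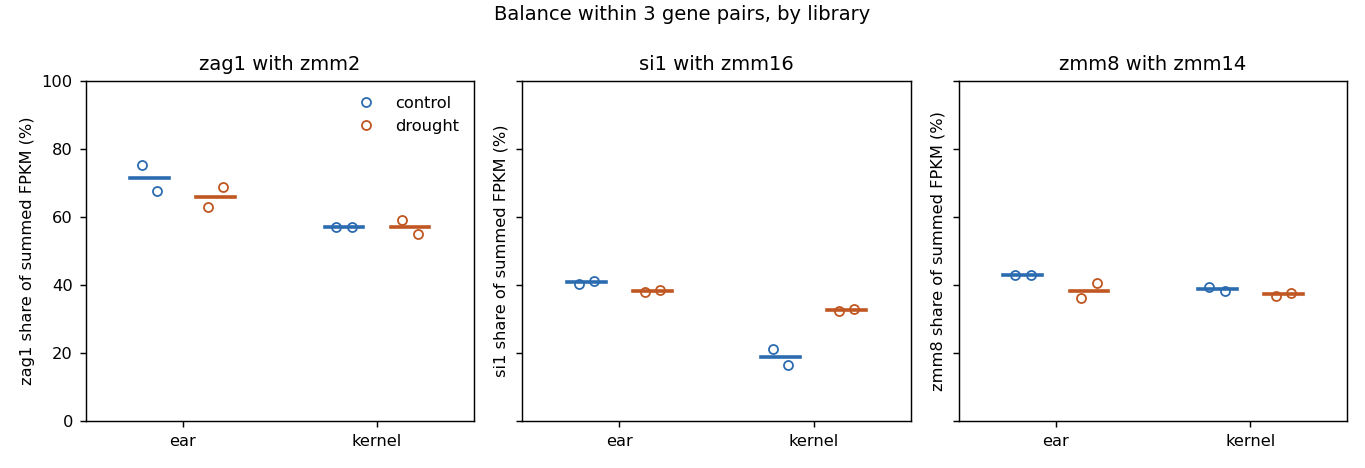
Share of the summed FPKM of 2 genes of the same class that came from the first named gene (y axis, %), for zag1 with zmm2, si1 with zmm16 and zmm8 with zmm14, by organ (x axis), with a circle for each library and a bar for the group mean. The si1 share in the kernel is 21.2% and 16.5% in controls and 32.4% and 32.9% under drought, while the zmm8 share lies between 36.2% and 43.0% in the ear and kernel libraries.

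The order of the 6 groups also set the genes apart. The control kernel ranked highest in FPKM for zag1, zmm2, zmm8, zmm14 and bde, the control ear for si1 and zmm16, and the drought ear for zap1. In FPKM the ranges of the 2 libraries overlapped for some neighbours in these orders. These were both ear groups for zag1, both kernel groups for si1, and the drought kernel with each ear group for zmm8. The drought kernel also overlapped the control ear for zap1 and for bde. The control and drought ear leaves overlapped for si1, zmm8 and zap1. In TMM-scaled CPM, of these pairs only the zag1 ear groups and the zmm8 and zap1 ear leaves overlapped. Other pairs overlapped in CPM alone: the ear groups of zmm14, the ear leaves of zmm2, and the drought kernel with the drought ear for bde. With drought the zmm8 kernel level (77.6 and 82.3 FPKM) came within the range of the ear libraries (69.2 to 83.7 FPKM) on the FPKM scale alone. In CPM the drought kernels (90.7 and 96.1 CPM) lay above every ear library (66.7 to 85.6 CPM). In all 8 genes, both ear leaf groups ranked last.

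Other MADS-box genes of the maize genome were followed as a list of 30, of which 25 were tested. This list included 8 genes taken from the study's own supplementary tables, which were chosen on these samples and are no independent evidence of direction or of the number called. Under drought 5 of the 25 rose and 1 fell in kernels, while ears had 1 gene called and ear leaves 2, all lower. Over all tested genes 13.7% were called higher and 13.5% lower in kernels, and 3.29% were called lower in ears and 9.19% in ear leaves. The kernel rises were m4 (GRMZM2G032339, log2 1.77), m15 (GRMZM2G553379, 1.34), m28 (GRMZM2G147716, 1.28), MADS4 (GRMZM2G097059, 1.12) and GRMZM2G320549 (1.45). Of the listed genes called under drought, only MADS4 was not from the study's tables. The counts can therefore not be weighed against the shares over all tested genes. The tables of the study give APETALA1 as the best Arabidopsis match of m4 and m15 and FRUITFULL as that of m28, the subfamily to which zap1 belongs.

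The 3 genes m4, m15 and m28 had larger log2 fold changes than zap1 in the ear and the kernel, a difference between genes that was not tested. All 3 were chosen by the study on these samples and zap1 was not, so their larger values are no independent evidence. m4 was at 66.5 ± 1.51 CPM in control kernels and 227 ± 11.2 CPM in drought kernels (SD, n = 2, edgeR adjusted p = 9.9e-17). In the ear, m4 was at 115 ± 3.20 and 206 ± 4.12 CPM (SD, n = 2, log2 0.85, edgeR adjusted p = 8.8e-10, under the fold criterion). m28 was at 59.2 ± 1.12 CPM in control ears and 118 ± 2.84 CPM in drought ears (SD, n = 2, log2 0.99, edgeR adjusted p = 3.7e-10, also just under it). The gene called lower in the ear was GRMZM2G001139, whose best Arabidopsis match is the ovule gene SEEDSTICK, at 60.7 ± 3.32 CPM in control and 25.5 ± 1.23 CPM in drought ears (SD, n = 2, log2 -1.25, edgeR adjusted p = 2e-09). GRMZM2G105387 fell in the kernel (log2 -1.52) and the ear leaf (-1.93), and GRMZM2G320549 fell in the ear leaf (-1.95). The median log2 fold change of the 25, which include the genes chosen from the study's tables, was 0.52 for ears, -0.58 for ear leaves and -0.07 for kernels under drought.

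GRMZM2G129034 (zmm27), matched to SEPALLATA3 and chosen by the study on these samples, was higher under drought in the kernel, where zmm8 and zmm14 were lower. The listed genes were not sorted by class, so this gene does not show how other SEPALLATA-type genes behaved. It was at 122 ± 4.38 CPM in control kernels and 226 ± 15.3 CPM in drought kernels (SD, n = 2, log2 0.89, edgeR adjusted p = 4.2e-09), short of the fold criterion. GRMZM2G010669 (m1), an AGAMOUS-like gene, had the same log2 fold change in the kernel as the C-class genes, at 123 ± 0.16 and 105 ± 2.07 CPM (SD, n = 2, log2 -0.23, edgeR adjusted p = 0.027).

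The genes whose pattern over the 12 libraries was most like that of a floral gene were found by Pearson's r of log2(CPM + 1). The 12 points share the 4 ear leaf libraries with low levels, and r is given as a description. The closest gene to zag1 was the MADS-box gene GRMZM2G159397 (zmm6 or zmm7), with r of 0.993. ZAG5 (GRMZM2G003514), another MADS-box gene, was the second closest to zmm14 (r of 0.995) and the third closest to zmm8 (0.993). Most of the others carry no descriptive name, such as GRMZM2G085964, the closest to si1 (0.996). ARF16 (GRMZM2G028980), an auxin response factor, was the third closest to zap1 (0.995), and GRMZM2G023110 (ark) the closest to zmm16 (0.983). Within the 8 genes, r ran from 0.634 (zmm2 and si1) to 0.995 (zmm14 and bde).

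Some counts were shared between similar sequences. Expected counts were whole, to within 0.02, in all 12 libraries for si1 and zmm16, in 5 for bde, 4 each for zmm8 and zmm14, 2 for zag1, 1 for zap1 and 0 for zmm2. zag1 and zmm8 have 1 transcript each in the files, and their fractions therefore came from reads that were shared with other genes. Which genes shared the reads was not tested, and the division of reads is uncertain for the 6 genes with fractional counts. The RefSeq gene table gives the name zmm14 as a synonym of zmm8, and the name zmm2 to GRMZM2G316366 and GRMZM2G492156 as well. GRMZM2G316366 had no group mean above 2.10 CPM, and GRMZM2G492156 had at most 7 counts in any library.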

How the data were processed

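RNA was extracted from pooled ears, ear leaves and kernels, enriched for mRNA with oligo(dT) beads, sequenced on an Illumina instrument and aligned to reference sequences. The aligner, the counting program and the annotation are not given in the sources used here. The authors deposited expected counts, which are raw estimates of the reads of each gene and hold fractions for shared reads. They also deposited FPKM, the authors' scaling of those estimates by length and by mapped reads. Genes not listed in a library were given 0.

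Expected counts were rounded, scaled with TMM factors and fitted as 6 group means over all 12 libraries with edgeR 4.0.16 in R 4.3.3. filterByExpr kept 26089 of 34238 genes with a count. The quasi-likelihood F test was adjusted by Benjamini-Hochberg over these genes. The model shares 1 spread per gene over the 6 groups, which were not equally noisy. The chi-square per gene between the 2 libraries of a group was 3.98 in control ear leaves and 3.04 in control kernels. In the other groups it ran from 1.27 to 1.37. Comparisons of groups were called at an adjusted p under 0.001 with a log2 fold change of 1 or more in size, interactions at an adjusted p under 0.05. CPM are TMM-scaled. The code was tested on simulated data.

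The 8 genes, all named in every comparison, and the list of other MADS-box genes, named where called under drought or present in the study's tables, were chosen with earlier results of these data known. For each of the 8, the 3 most similar genes were sought and the few with names or highest r are given. Names came from the RefSeq gene table of Zm-B73-REFERENCE-NAM-5.0, which matched 18528 identifiers. Alternatives were DESeq2 1.42.0, library sizes without TMM, no filter, a mean of at least 10 counts, limma 3.58.1 on log2(FPKM + 1) and log2(FPKM + 0.1), a replicate block, each organ alone and leaving out each library. With 1 library left in a group, it was assumed to vary like the other groups.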

Additional observations from a re-analysis of the deposited data

Results flagged for a closer look

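Drought effects that differed between organs are listed with the log2 difference from the edgeR interaction test. For the kernel against the ear the differences were -0.61 for zmm2, 1.12 for si1, -0.76 for zmm8, -0.95 for zmm14 and -1.23 for bde. For zmm16 the difference was 1.82 for the ear leaf against the ear and -1.91 for the kernel against the ear leaf.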

How the results depend on the processing

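Of the 8 genes, the count called under drought in the kernel was 3 with library sizes and 3 with limma on log2(FPKM + 1), against 1 in the main model. Over all 26089 tested genes the calls there were 7365, 6741 and 7078. Kernel against ear gave 2 with limma on log2(FPKM + 0.1), against 6, beside 4485 and 6251 over all tested genes. The drought effect differed between ear leaf and ear for 4 and 3 genes with limma at pseudocounts of 1 and 0.1, beside 11434 and 9906 over all tested genes. Between kernel and ear it differed for 3 at 0.1, beside 9270. Between kernel and ear leaf it differed for 5 and 3 with limma, beside 15421 and 13550, and for 2 with library sizes, beside 13217. Leaving out each library gave 0 to 1 calls for drought in ear leaves and likewise in kernels, 7 to 8 for ear against ear leaf, 4 to 5 for kernel against ear interactions and 1 to 2 for kernel against ear leaf interactions, where zmm8 joined without control ear leaf replicate 2 or drought ear leaf replicate 1. The counts stayed at 0 for drought in ears, 6 for kernel against ear, 8 for kernel against ear leaf and 1 for ear leaf against ear interactions when a library was left out. The cause of these shifts was not tested.

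Direction reversed for values that were not called in the main model. In drought ears, DESeq2 gave zag1 -0.010 and zmm14 -0.0070, and leave-one-out fits ran from -0.11 to 0.13 for zag1 (-0.024 without control ear replicate 1) and from -0.026 to 0.059 for zmm14. In drought ear leaves, zmm2 was 0.19 with library sizes and 0.094 and 0.16 with limma, zap1 was 0.30 with library sizes and 0.011 with the organ alone, and leave-one-out fits ran from -0.47 to 1.43 for zmm8 (-0.12 without drought ear leaf replicate 2) and from -0.34 to 0.22 for zap1. Of the ear leaf against ear interactions, si1 was 0.49 and 0.35 with limma and -1.42 to 0.097 on leaving out libraries, and zmm8 was -0.20 to 1.70. Of the kernel against ear interactions, zmm16 was -0.19 to 0.018 on leaving out libraries, and zap1 was -0.081 with library sizes and -0.080 and -0.079 with limma. Of the kernel against ear leaf interactions, leave-one-out gave -0.22 to 0.065 for zmm2 and -0.31 to 0.018 for zmm14, and limma gave bde -0.77 (adjusted p = 0.0045) and -0.092.

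Library sizes moved the calls over all genes from 1861 higher and 2398 lower to 3099 and 1568 for drought ear leaves, from 3564 and 3514 to 2907 and 4458 for drought kernels, from 1030 and 858 to 1244 and 680 for drought ears, from 5882 and 6821 to 10247 and 4798 for ear against ear leaf, and from 5688 and 6033 to 10086 and 3831 for kernel against ear leaf. The median over all genes moved to 0.85 and 0.86 in the last pair of comparisons. For the interactions the calls went from 4232 higher and 5128 lower to 6047 and 3789 for ear leaf against ear, from 4937 and 5307 to 3137 and 7850 for kernel against ear, and from 6656 and 5301 to 4001 and 9216 for kernel against ear leaf.

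Differences between replicates were correlated between control and drought over all tested genes, with values of 0.019 for ears, -0.017 for ear leaves and 0.020 for kernels. Counting noise could hide a pairing in such a correlation, so it cannot show whether the replicate numbers pair libraries. A replicate block left every count of called members as it was, with 0, 1 and 1 under drought in ear, ear leaf and kernel. Over all values, 843 of 864 with a library left out and 483 of 523 under the other alternatives kept their direction and their side of the threshold. The left-out library often lay outside the groups compared, so the first of these tallies is partly built in. With at most 88 counts per ear leaf library for any of the 8 genes, differences there were limited by depth, and 2 libraries per group limit all of them.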
